A study of Mus musculus with 12 samples.

Results

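The immediate early response genes were examined in mouse back skin, 10 of the 18505 gene symbols for which a normalised expression value was given. The genes were Fos, Fosb, Jun, Junb, Egr1, Egr2, Egr3, Atf3, Ier2 and Nr4a1, taken by symbol as classical members of this class, and all 10 passed the filter on low values. Levels are given in FPKM, fragments mapped to a gene scaled by transcript length and by the mapped fragments of the sample, a unit that corrects for length and so allows levels of different genes to be set beside each other.

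Immediate early genes are transcribed within minutes of a stimulus from factors that are already present in the cell, and their short-lived transcripts usually decline again soon afterwards. Most of them encode transcription factors: FOS and JUN proteins pair to form AP-1, EGR proteins bind GC-rich sites through zinc fingers, and NR4A1 is an orphan nuclear receptor. In skin they are known to respond to growth factors, wounding, ultraviolet light and stress, and in many tissues to excision and dissociation.

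RNA-seq was performed on 12 skin samples taken on day 10 from male wild-type BALB/c mice aged 5 to 6 weeks, with shaved backs, in 3 groups of 4. Control mice, whose treatment the labels give as white space handling, received petroleum jelly. Mice of the IMQ + NS group received imiquimod (IMQ) cream, an agonist of Toll-like receptor 7 that induces psoriasis-like lesions, and the lesion was then covered with normal saline (NS) under gauze and film. Mice of the IMQ + BZLF group received the same cream followed by the Banzhilian formula (BZLF), a mixture of Chinese medicinal materials, under the same cover. A cover is not described for the control mice, so imiquimod and cover cannot be told apart in any comparison with control skin. The BZLF dose of the sequenced samples and the time from death to RNA extraction are not given in the sources used here. The samples were not stated to come from separate animals, and p-values then measure only the spread between samples.

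Total FPKM per sample was between 444660 and 506622, and the table holds no read counts, so the depth behind a single value is unknown, although the study describes similar amounts of clean data for all samples. Keratinocyte keratins were abundant in every sample, with Krt5, a keratin of the basal epidermis, between 539 and 2186 FPKM. Control replicate 2 stood apart by its hair follicle genes: the summed level of 8 follicle markers was 1819 FPKM in that sample, between 17.9 and 57.9 FPKM in the other controls and between 7135 and 12690 FPKM in both IMQ groups. For the 10 genes, their spread and the lists of related genes, results that involve the control group are therefore also given without that sample. In whole skin, fewer cells of a type and less RNA per cell cannot be told apart.

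The starts of the genes are shown because many immediate early genes are known to carry binding letters for CREB and ATF proteins or serum response factor there. RefSeq start windows of 300 bases (build GRCm38.p6) were held for 7 of the 10 genes, and no sequence was printed for Egr1, Egr3 and Ier2. The 120 bases before the start of transcription are printed 5′ to 3′ for a pair of genes that fell in the results below and a pair that did not pass the test: Fos (chr12:85473770-85473889, plus strand), Nr4a1 (chr15:101266726-101266845, plus strand), Junb (chr8:84978749-84978868, minus strand) and Jun (chr4:95052223-95052342, minus strand), with TGACG on either strand in capitals. None of the 4 stretches overlapped an annotated exon of its gene.
Fos: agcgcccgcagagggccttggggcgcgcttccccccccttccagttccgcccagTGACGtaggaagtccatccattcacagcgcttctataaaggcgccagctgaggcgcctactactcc
Nr4a1: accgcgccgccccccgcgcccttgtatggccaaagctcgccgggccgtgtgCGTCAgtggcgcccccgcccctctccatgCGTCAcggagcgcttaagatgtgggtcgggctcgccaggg
Junb: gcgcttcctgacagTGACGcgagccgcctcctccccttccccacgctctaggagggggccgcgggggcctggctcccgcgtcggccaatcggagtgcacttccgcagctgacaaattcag
Jun: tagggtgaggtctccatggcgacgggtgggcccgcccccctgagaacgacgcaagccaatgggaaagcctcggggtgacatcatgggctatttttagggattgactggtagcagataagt

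TGACG, the first letters of the cAMP response element TGACGTCA, was present on either strand in the windows of 6 of the 7 genes, all but Jun, and in 23.0% of 27025 mouse genes. The complete TGACGTCA was in none of the 7 and in 2.03% of genes, and the AP-1 letters TGANTCA were in none of the 7 and in 8.97% of genes. A CArG box, the site of serum response factor, was found in the windows of Egr2 alone among the 7 genes and in 1.81% of genes. Bases outside the windows were not searched, so sites farther upstream of Fos or the other genes could not be seen. Egr1, Egr3 and Ier2 had no window and were not searched at all. The EGR letters GCGNGGGCG were found in Fosb and Nr4a1 and in 6.27% of genes. Stretches of 30 bases show the matches of the remaining genes, with TGACG, and for Egr2 also the CArG box, in capitals: Egr2 at chr10:67537793-67537822 (plus strand), Fosb at chr7:19310091-19310120 (minus strand) and Atf3 at chr1:191183334-191183363 (minus strand).
Egr2: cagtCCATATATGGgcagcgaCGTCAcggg
Fosb: gcatggagttgcgggTGACGcaagcgcggg
Atf3: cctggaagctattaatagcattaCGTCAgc
These matches describe letters and not bound sites, and genes with TGACG were found both among those that fell in the results below and among those that did not pass the test.

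The first comparison asked how the genes differed between psoriasis-like lesions and control skin. Of the 10 genes, 5 were lower in IMQ + NS than in control skin and 0 were higher, at an adjusted p below 0.05 and a change over 2-fold with limma. In the same test 11% of 15288 genes were lower and 11.4% were higher. By the adjusted p alone, 6 of the 10 were lower and 1 was higher, against 27.1% and 29% of genes tested. The median log2 difference was -1.21 for the 10 genes and 0.05 for all genes tested. The genes that fell were Fos, Fosb, Egr1, Atf3 and Nr4a1, while Jun, Junb and Egr2 did not pass the test.

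**Figure D1:**
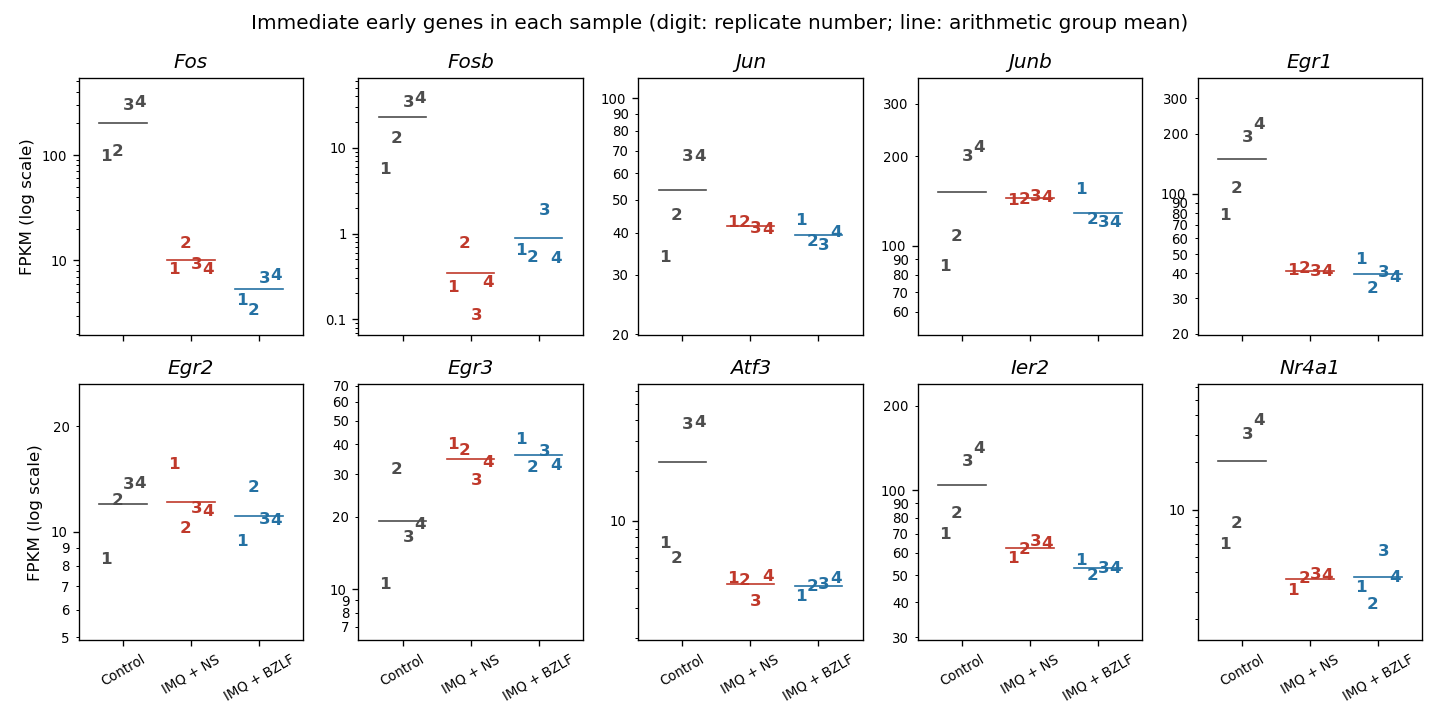
Level of each gene in FPKM on a log axis in control, IMQ + NS and IMQ + BZLF samples; digits are replicate numbers and lines are arithmetic means of 4 samples. Control replicates 3 and 4 lie above replicates 1 and 2 in all panels but Egr3, and all controls lie above all IMQ samples for Fos, Fosb, Egr1, Atf3, Ier2 and Nr4a1.

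Fos, the central partner of JUN proteins in AP-1, had 97.7, 107, 293 and 313 FPKM in the control samples and 8.16, 14.6, 9.05 and 8.20 FPKM in the IMQ + NS samples. Every control sample was far above every lesion sample, although the controls themselves differed by 3.21-fold between the lowest and the highest. The mean level was 203 ± 116 FPKM in control and 9.99 ± 3.07 FPKM in IMQ + NS skin (SD, n = 4). On the log2(FPKM + 0.1) scale, on which all differences below are given, Fos was lower by a log2 difference of -4.17 (SE 0.41; limma, adjusted p = 7.78e-05).

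Fosb, a relative of Fos that also pairs with JUN proteins, had 5.63, 12.7, 34.1 and 37.9 FPKM in control skin and 0.237, 0.775, 0.112 and 0.271 FPKM in IMQ + NS skin. The groups did not overlap, and the lesion values were all below 1 FPKM. The log2 difference was -5.49 (SE 0.65; limma, adjusted p = 1.92e-04), the largest among the 10 genes. With 1 instead of 0.1 added before the logarithm it was -3.82, since the levels in lesions were low.

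The JUN partners moved far less than the FOS genes. Jun had 33.9, 44.9, 67.3 and 67.3 FPKM in control and 43.0, 42.9, 41.1 and 40.9 FPKM in IMQ + NS samples, so the lesion samples lay inside the range of the controls. Its log2 difference was -0.29 with a 95% interval from -0.76 to 0.18 (limma, adjusted p = 0.262). Junb had 85.5, 108, 199 and 214 FPKM in control samples against 142, 144, 146 and 146 FPKM in IMQ + NS samples. The lesion values again fell between the lower and the higher controls, and the log2 difference of 0.04 had a 95% interval from -0.59 to 0.67 (limma, adjusted p = 0.92).

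Among the zinc finger factors, Egr1, which is induced by growth factors and injury, had 77.7, 106, 191 and 222 FPKM in control and 41.2, 42.3, 40.8 and 41.0 FPKM in IMQ + NS samples. All controls were above all lesion samples, and the 4 lesion samples were nearly equal. The log2 difference was -1.72 (SE 0.30; limma, adjusted p = 0.00142). Egr2 had 8.33, 12.3, 13.6 and 13.8 FPKM in control and 15.5, 10.2, 11.7 and 11.4 FPKM in IMQ + NS samples, with overlapping groups and a log2 difference of 0.03 (95% interval -0.39 to 0.46; limma, adjusted p = 0.89).

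Egr3, known with Egr2 for roles in lymphocyte activation, went the other way. It had 10.4, 31.3, 16.4 and 18.6 FPKM in control and 39.7, 37.7, 28.2 and 33.6 FPKM in IMQ + NS samples. The groups overlapped because control replicate 2, the sample with follicle genes, was above IMQ + NS replicate 3. The log2 difference of 0.96 (SE 0.29; limma, adjusted p = 0.0209) was under 2-fold and was not called, and the exact permutation test gave p = 0.0571 (two-sided, 4 against 4). Without control replicate 2 it was 1.23 (limma, adjusted p = 8.55e-04) and passed both limits.

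Atf3, a stress-induced factor of the ATF and CREB family, had 7.32, 6.01, 37.9 and 38.8 FPKM in control and 4.54, 4.42, 3.28 and 4.67 FPKM in IMQ + NS samples. The groups did not overlap, but control replicates 1 and 2 were close to the lesion values and replicates 3 and 4 were far above them. The log2 difference was -1.91 (SE 0.62; limma, adjusted p = 0.0271), and the call was lost without control replicate 3, without control replicate 4 or without any 1 of the IMQ + NS samples (adjusted p of 0.0531 to 0.0689).

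Nr4a1, the orphan nuclear receptor also called Nur77, had 5.99, 8.14, 30.1 and 37.1 FPKM in control and 3.07, 3.62, 3.84 and 3.82 FPKM in IMQ + NS samples. As for Atf3, the groups did not overlap, and control replicates 3 and 4 were the farthest from the lesion values. The log2 difference was -2.07 (SE 0.55; limma, adjusted p = 0.0122). Ier2, a nuclear protein induced early after growth stimulation, had 69.9, 82.4, 126 and 140 FPKM in control and 57.2, 61.4, 66.0 and 64.9 FPKM in IMQ + NS samples. Its groups did not overlap either, but the log2 difference of -0.69 (SE 0.21; limma, adjusted p = 0.0216) stayed under 2-fold.

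Groups that did not overlap were found for 6 of the 10 genes, all of them lower in lesions, compared with 25.7% of all genes tested that were lower without overlap and 23.7% that were higher. The exact permutation test gave p = 0.0286 (two-sided) for each of the 6, the smallest value that 4 against 4 samples allow. Groups of this size without overlap always give that value, so the test adds nothing to the lack of overlap. Without control replicate 2, the 5 genes that fell remained called, and their log2 differences ranged from -1.84 for Egr1 to -5.64 for Fosb.

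**Figure D2:**
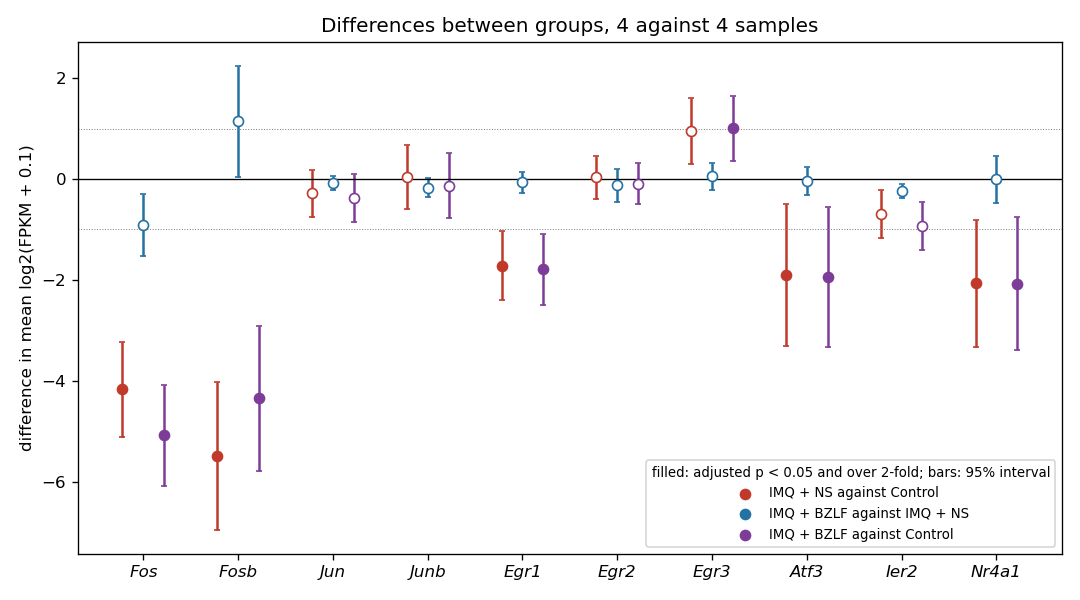
Difference in mean log2(FPKM + 0.1) between groups of 4 samples for each gene, with 95% intervals from limma; filled points passed an adjusted p of 0.05 and a 2-fold change, and dotted lines mark 2-fold. Fos and Fosb lie between -4.17 and -5.49 in both comparisons with control skin, and the intervals for IMQ + BZLF against IMQ + NS are the narrowest for all 10 genes.

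The order of the levels differed between the groups. In control skin Fos had the highest mean level, 203 FPKM, followed by Junb with 152 ± 64.5 and Egr1 with 149 ± 68.2 FPKM (SD, n = 4). These SDs include the spread between samples that the genes share. Within samples, Fos was above Egr1 in every control, though barely in replicate 2 (107 against 106 FPKM), and above Junb in all but replicate 2. The order was not tested. Ier2 with 105 and Jun with 53.3 FPKM came next, followed by Fosb, Atf3, Nr4a1 and Egr3, whose means between 19.2 and 22.6 FPKM were within their spread. Egr2 was lowest with 12 FPKM. In IMQ + NS skin Junb led with 144 ± 1.86 FPKM, followed by Ier2 with 62.4 FPKM and by Jun and Egr1 with 42.0 and 41.3 FPKM, values within the spread of each other. Fos with 9.99 FPKM stood below Egr2 with 12.2 FPKM, their samples overlapping, and Atf3, Nr4a1 and Fosb were lowest with 4.23, 3.59 and 0.349 FPKM. In IMQ + BZLF skin the order was the same except that Egr1 and Jun, with 39.7 and 39.5 FPKM, changed places.

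The second comparison asked whether treatment with BZLF changed these levels in lesions. With limma 0 of the 10 genes were called higher and 0 lower in IMQ + BZLF than in IMQ + NS samples, compared with 0.321% and 2.2% of all genes tested. At an unadjusted p below 0.05 there were 3 genes, Fos, Fosb and Ier2. The median log2 difference was -0.08 for the 10 genes and -0.02 for all genes. Groups did not overlap for 2 genes, both lower with BZLF, against 10.9% of genes tested that were lower without overlap and 4.24% that were higher.

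Fos had the larger difference of the 2 genes without overlap, with 4.14, 3.34, 6.76 and 7.13 FPKM in IMQ + BZLF samples against 8.16 to 14.6 FPKM in IMQ + NS samples. The highest treated sample lay just under the lowest untreated one. The log2 difference was -0.92 (SE 0.27; limma, adjusted p = 0.0821; exact permutation p = 0.0286, two-sided), which did not pass the adjusted limit, and the adjusted p ranged from 0.0638 to 0.29 over the alternatives. Ier2 had 56.2, 49.8, 52.6 and 52.9 FPKM in IMQ + BZLF samples against 57.2 to 66.0 FPKM, again without overlap but with a small gap. Its log2 difference was -0.24 (SE 0.06; limma, adjusted p = 0.0526; exact permutation p = 0.0286, two-sided). For both genes the exact p follows from the lack of overlap alone. The adjusted p of Ier2 ranged from 0.0345 to 0.632 over the alternatives with limma and was below 0.05 without IMQ + NS replicate 1 or without IMQ + BZLF replicate 1, always under 2-fold.

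Fosb showed a difference in the opposite direction to Fos that did not pass the test. It had 0.628, 0.524, 1.86 and 0.517 FPKM in IMQ + BZLF samples, and replicate 3 was more than 2-fold above the rest of its group. The groups overlapped, and the log2 difference of 1.14 had a 95% interval from 0.04 to 2.25 (limma, adjusted p = 0.207). These levels are near the constant of 0.1 that was added.

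The remaining 7 genes had log2 differences between -0.17 and 0.05, overlapping groups and adjusted p of 0.265 to 0.988 with limma. For Egr1, with 46.7, 33.5, 40.7 and 38.0 FPKM in IMQ + BZLF samples, the 95% interval of the log2 difference was -0.27 to 0.14. Jun had 43.6, 37.7, 36.6 and 40.1 FPKM, and its interval was -0.23 to 0.05. Junb had 155, 123, 120 and 119 FPKM, with an interval of -0.36 to 0.02, replicate 1 being the only treated sample above the IMQ + NS range. Without that sample the log2 difference of Junb was -0.26 (limma, adjusted p = 0.0137), and over the alternatives its adjusted p ranged from 0.0137 to 0.847, always under 2-fold. For each of these genes a 2-fold difference in either direction was outside the interval.

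For Egr2 (9.38, 13.4, 10.9 and 10.8 FPKM with BZLF) the interval was -0.45 to 0.19, and for Egr3 (41.8, 32.2, 37.3 and 32.6 FPKM) it was -0.22 to 0.32. For Atf3 (3.56, 4.05, 4.17 and 4.53 FPKM) the interval was -0.33 to 0.24. Nr4a1 had 3.18, 2.49, 5.40 and 3.72 FPKM, spread on both sides of the IMQ + NS samples, and an interval of -0.47 to 0.45. A 2-fold difference in either direction was again outside each of the 4 intervals.

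The third comparison set the IMQ + BZLF samples against control skin. It shares the control samples with the first comparison and the treated samples with the second, so the 3 are not independent. With limma 5 genes were lower, against 10.1% of genes tested, and 1 was higher, against 9.65%. The lower genes were Fos with a log2 difference of -5.09 (SE 0.44; adjusted p = 6.13e-05), Fosb with -4.35 (SE 0.63; adjusted p = 7.46e-04), Nr4a1 with -2.08 (SE 0.58; adjusted p = 0.0158), Atf3 with -1.95 (SE 0.61; adjusted p = 0.0252) and Egr1 with -1.79 (SE 0.31; adjusted p = 0.0017). In the comparison of IMQ + NS with control skin the values had been -4.17, -5.49, -2.07, -1.91 and -1.72 for the same genes. Without control replicate 2 these 5 genes were still called, with log2 differences of -5.33, -4.50, -2.38, -2.42 and -1.91. The call for Atf3 was lost without control replicate 3 or 4 or without IMQ + BZLF replicate 1, 2 or 3 (adjusted p up to 0.0638).

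Egr3 was the gene called higher, with a log2 difference of 1.01 (SE 0.28; limma, adjusted p = 0.0166) and no overlap, since the lowest IMQ + BZLF sample had 32.2 FPKM and the highest control 31.3 FPKM. The difference stood just above 2-fold and fell to 0.75 without control replicate 1, while it was 1.28 without control replicate 2. Ier2 was lower without overlap by a log2 difference of -0.93 (SE 0.21; limma, adjusted p = 0.00602), just under 2-fold. It was called without control replicate 2, where the log2 difference was -1.02, and the number of genes called lower was then 6. Jun with -0.38, Junb with -0.13 and Egr2 with -0.10 did not pass the test (limma, adjusted p of 0.162, 0.714 and 0.671). Groups did not overlap for 7 genes, 6 lower and 1 higher, against 28.1% and 19.4% of genes tested.

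The spread between samples of a group was described for each gene by the SD of log2(FPKM + 0.1) over its 4 samples. In control skin the median SD of the 10 genes was 0.682, from 0.338 for Egr2 to 1.46 for Atf3, compared with 0.246 over all genes tested and 0.226 over the 12657 genes with a mean of at least 1 FPKM. The SD in controls was above the 90th percentile of genes tested for 7 of the 10 genes. In IMQ + NS skin the medians were 0.183 for the 10 genes and 0.135 for all genes, and in IMQ + BZLF skin 0.189 and 0.152.

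The control SD was larger than the SD in each IMQ group for 10 of 10 genes, which was the case for 61.7% of all genes tested. The highest control was more than 2-fold above the lowest for 8 of the 10 genes, against 25.5% of genes tested. The share was 18.4% of genes with a mean of at least 1 FPKM, and both shares include genes with a control at 0. In IMQ + NS skin this held for 1 of the 10 genes and in IMQ + BZLF skin for 3. The share of all genes above 2-fold was not computed for the IMQ groups or with a control left out. Without control replicate 2 the median control SD was 0.777 for the 10 genes and 0.14 for all genes tested, the control SD was the largest for 10 of 10 genes against 34.9% of all genes, and 7 of the 10 genes exceeded 2-fold. Without control replicate 1 these were 0.553 and 0.254, 9 of 10 genes against 60.5%, and 5 genes. Junb and Egr1 were among the genes with the smallest spread in IMQ + NS skin, with SDs of 0.019 and 0.023, and only 0.661% and 1.15% of genes tested had a smaller one.

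**Figure D3:**
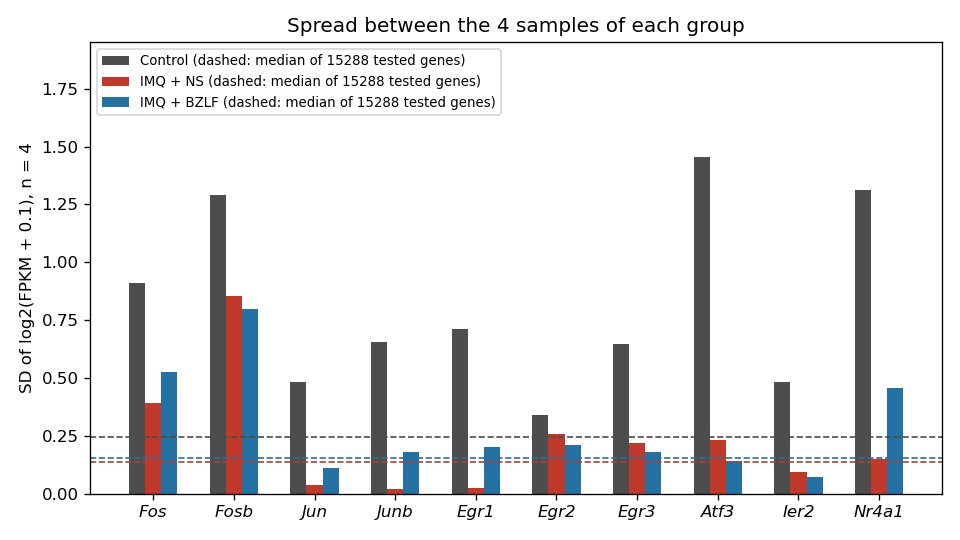
SD of log2(FPKM + 0.1) between the 4 samples of each group for the 10 genes, with dashed lines at the median of all 15288 genes tested. The control bars are the tallest for all 10 genes and reach 1.46 for Atf3, while the bars for Junb and Egr1 in IMQ + NS samples are 0.019 and 0.023.

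The same control samples were high or low for most genes. Control replicate 4 was the highest for 9 of the 10 genes and replicate 3 the next for 9, while replicate 1 was the lowest for 9. Replicate 2 was the highest only for Egr3. Averaged over the 10 genes, the deviation from the control mean was -0.88, -0.38, 0.57 and 0.70 on the log2 scale for replicates 1 to 4. In IMQ + NS samples these averages lay between -0.15 and 0.18 and in IMQ + BZLF samples between -0.19 and 0.21, with no sample at the top for more than 5 genes. The deviations of 8 genes had a Pearson r of 0.81 to 0.95 with the mean of the other members over the 12 samples, while Egr2 had 0.49 and Egr3 0.18. The genes share the 12 libraries, and these r values are a description only.

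Other measures also differed among the controls. The summed level of 6 keratinocyte markers was 2396, 2183, 3197 and 3397 FPKM in control replicates 1 to 4, and that of 6 fibroblast markers was 15132, 13084, 18393 and 18643 FPKM. Both sums were higher in replicates 3 and 4, as for most immediate early genes, but by less than 2-fold. The highest control was more than 2-fold above the lowest for 3 of the 6 keratinocyte markers and 0 of the 6 fibroblast markers. This spread was also found for 6 of 6 skeletal muscle markers, 5 of 5 red cell genes and 8 of 8 follicle markers. It was found for 4 of 5 adipocyte and 4 of 6 neutrophil markers, and 1 further neutrophil marker had a control at 0. The counts were 1 of 5 for T cell markers and 0 of 5 each for endothelial, macrophage and Schwann cell markers. Krt1 had 195, 117, 297 and 320 FPKM, and Krt10, outside the naming rule, 905, 535, 1280 and 1327 FPKM in control replicates 1 to 4. Trp63 was highest in replicate 2. The summed level of 6 skeletal muscle markers, 8647, 3498, 7977 and 8153 FPKM, was lowest in replicate 2, and that of 5 red cell genes was 432, 235, 704 and 447 FPKM. The part of tissue makeup and of sample handling in the spread was not tested.

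The genes whose deviations were most like the mean of the 10, among 12647 other genes with a mean of at least 1 FPKM, were Klf4 (Pearson r = 0.971 over 12 samples), Csrnp1 (0.951), Ccn1 (0.948), Ndrg3 (0.948), Zfp36l1 (0.943), Pim3 (0.941), Exoc6b (0.937), Apbb2 (0.924), Apold1 (0.923) and Mafk (0.922). Klf4, Csrnp1, Ccn1 and Zfp36l1 belonged to a list of other immediate early genes and Mafk to the list of partners of FOS and JUN. Ccn1, a secreted matricellular protein, had 58.3, 70.8, 212 and 231 FPKM in controls, the same order as Fos. Ndrg3 ranged from 17.1 to 19.8 FPKM in controls, so that a high r did not require a large spread.

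**Figure D4:**
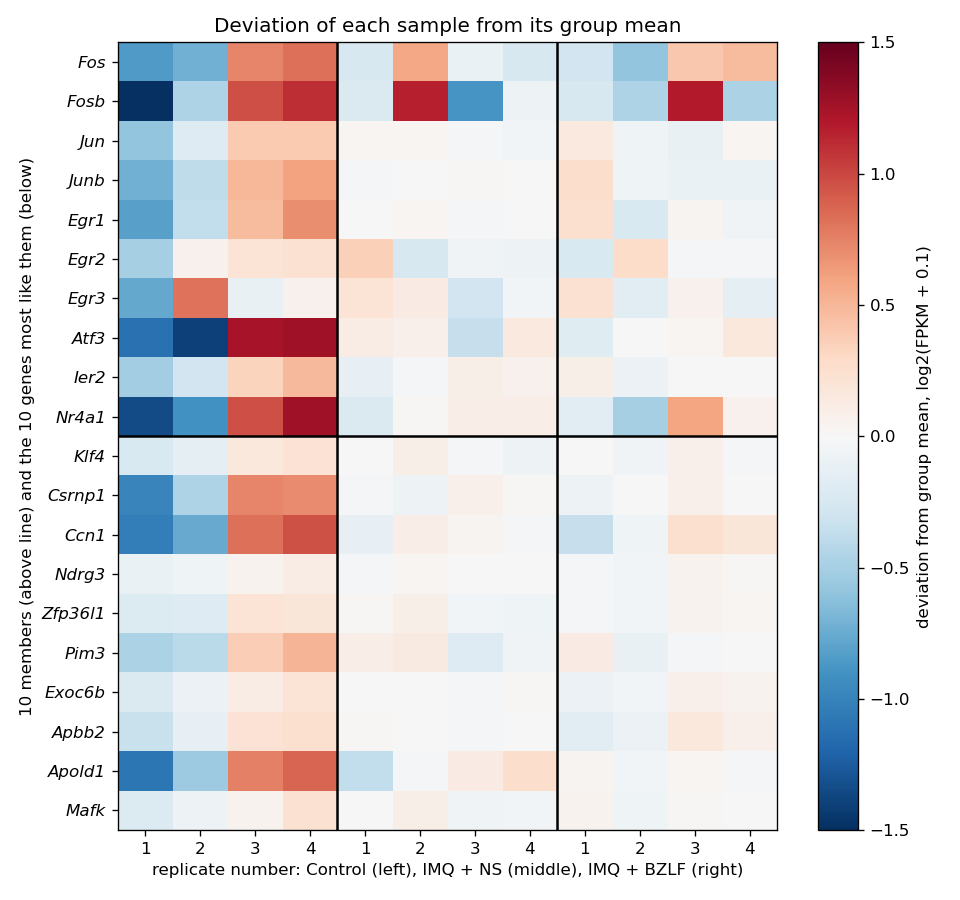
Deviation of each sample from its group mean on the log2(FPKM + 0.1) scale for the 10 immediate early genes (above the line) and the 10 genes most like their mean (below), with replicates 1 to 4 of each group as columns. Control replicates 1 and 2 are mostly blue (low) and 3 and 4 red (high), Egr3 is the exception with a high replicate 2, and the columns of the IMQ groups are mostly pale.

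Further genes of the same response were examined as lists. Of 37 other immediate early genes 35 were tested, of which 5 rose and 3 fell in IMQ + NS against control skin, with a median log2 difference of 0.16 against 0.05 for all genes. Of all genes tested, 11.4% rose and 11% fell. Plk3, a stress-responsive kinase, rose from a mean of 7.74 to 60.7 FPKM (log2 difference 2.95, SE 0.10; limma, adjusted p = 2.17e-07), and its 4 controls lay between 7.28 and 8.12 FPKM. Areg, a ligand of the EGF receptor, rose by 2.6, Gadd45a, a growth arrest and DNA damage gene, by 1.36, and Ier5l by 1.02 on the log2 scale (limma, adjusted p of 0.00199, 0.00111 and 0.00216).

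The genes of that list that fell were Ccn1 by 2.59, Klf2, a factor known from endothelium and lymphocytes, by 1.96, and Zfp36, which promotes decay of short-lived transcripts, by 1.39 on the log2 scale (limma, adjusted p of 0.00117, 2.08e-04 and 0.00418). Zfp36 had 70.9, 65.7, 154 and 164 FPKM in controls and 38.1 to 40.4 FPKM in IMQ + NS samples. Like most of the 10 genes, it was high in control replicates 3 and 4. Its IMQ + NS values were nearly even. The highest control was more than 2-fold above the lowest for 13 of the 37 genes, all 13 among the 35 tested. The 2 genes that were not tested each had a control at 0. Of all genes tested, 25.5% were of either kind. Between the IMQ groups 0 of the 35 were called, and 5 were lower with BZLF at an adjusted p below 0.05 without reaching 2-fold, against 5.17% of genes tested. Against control skin 3 were higher and 3 lower in IMQ + BZLF samples, compared with 9.65% and 10.1% of genes tested. The counts without control replicate 2 were 5 higher and 4 lower in IMQ + NS and 3 higher and 4 lower in IMQ + BZLF samples. Leaving out IMQ + NS replicate 3 left 3 higher in IMQ + NS skin, and leaving out control replicate 1 gave 5 lower in IMQ + BZLF skin.

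Of 17 tested phosphatases and inhibitors that restrain MAP kinase signals, 4 rose and 1 fell in IMQ + NS against control skin, where 11.4% of all genes tested rose and 11% fell. Dusp1, an immediate early phosphatase of p38 and JNK, had 118, 95.03, 322 and 340 FPKM in controls and 16.8, 20.65, 19.9 and 20.4 FPKM in IMQ + NS samples. Its groups were far apart, and the controls were split as for Fos. The log2 difference was -3.27 (SE 0.40; limma, adjusted p = 2.45e-04).

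The phosphatases that rose were Dusp14 by 4.38, Dusp2 by 2.82, Dusp5 by 1.77 and Dusp9 by 1.5 on the log2 scale (limma, adjusted p of 7.33e-08 to 0.00557). Dusp14 rose from a mean of 4.79 ± 0.610 FPKM in control to 102 ± 12.6 FPKM in IMQ + NS skin (SD, n = 4). Between the IMQ groups 0 of the 17 were called with limma. Against control skin 5 were higher in IMQ + BZLF samples, Dusp8 and the 4 that rose in IMQ + NS samples. Dusp1 was lower with a log2 difference of -3.28. In that comparison 9.65% of all genes tested were higher and 10.1% lower. When control replicate 2 was left out there were 6 higher and 2 lower in IMQ + NS samples, and 5 higher and 1 lower in IMQ + BZLF samples, and without control replicate 1 there were also 2 lower in IMQ + NS samples.

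**Figure D5:**
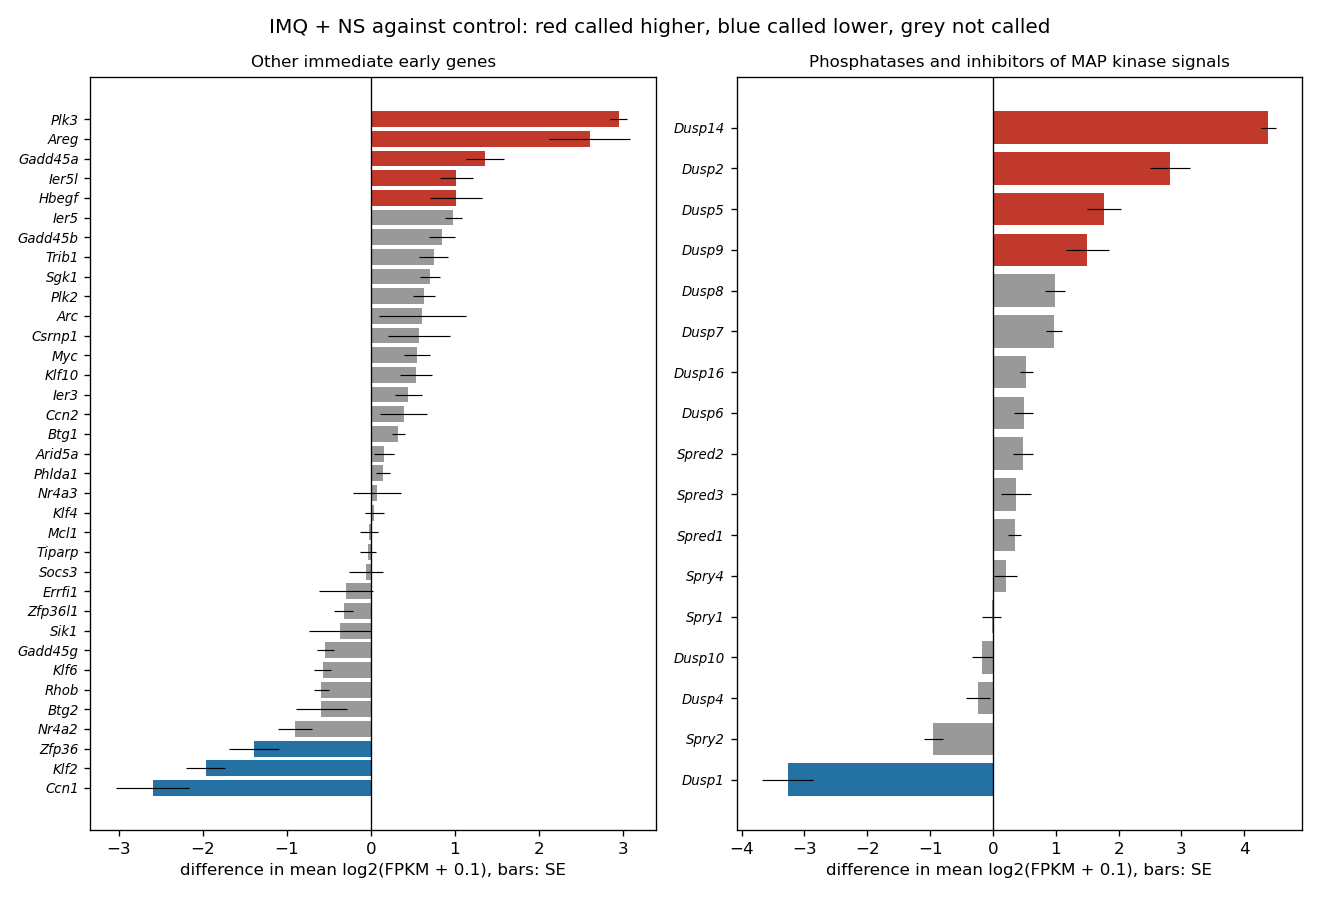
Difference in mean log2(FPKM + 0.1) between IMQ + NS and control skin, with SE, for the other immediate early genes (left) and for phosphatases and inhibitors of MAP kinase signals (right); red and blue bars were called higher and lower. Plk3 and Areg lead the left panel at 2.95 and 2.6, and Dusp14 and Dusp1 form the ends of the right panel at 4.38 and -3.27.

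Of 18 partners and relatives of FOS and JUN, 1 rose and 1 fell in IMQ + NS against control skin. The shares of all genes tested were 11.4% and 11%. Fosl1, a FOS-related gene of proliferating and wounded epidermis, rose from 0.428 to 1.76 FPKM (log2 difference 1.82; limma, adjusted p = 4.69e-04), so it moved in the direction opposite to Fos and Fosb. Batf2 fell by 1.15 (limma, adjusted p = 0.00421), a call that was lost without IMQ + NS replicate 3. Leaving out control replicate 2 gave 1 higher and 2 lower. The level of the list was nearly even over the samples: its sum was between 624 and 633 FPKM in controls and between 565 and 599.5 FPKM in IMQ + NS samples.

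Of 31 tested kinases and factors upstream of the immediate early genes, Braf rose by 1.34 and Mapk13 by 1.08 in IMQ + NS against control skin. Mapk12, a p38 kinase known from muscle, fell by 1.53 on the log2 scale (limma, adjusted p of 9.46e-04, 4.39e-05 and 5.62e-04 for the 3 genes). In that comparison 11.4% of all genes tested rose and 11% fell. Without control replicate 2 there were 3 higher and 1 lower. Of the 2 EGR corepressors, Nab2 was not called in lesions and was higher in IMQ + BZLF than in control skin by 1.03 (limma, adjusted p = 0.00717), with 27.1 FPKM in control replicate 2 and 12.6 to 13.5 FPKM in the other controls, the same sample that was high for Egr3. This call was lost without control replicate 1, 3 or 4 or without IMQ + BZLF replicate 1. Of 13 heat shock genes 0 were called in any of the 3 comparisons with limma, although 6 were higher in IMQ + NS than in control skin at an adjusted p below 0.05 (29% of genes tested) without reaching 2-fold. Hspa1b, outside the naming rule and chosen after its value was seen, was called higher in IMQ + NS skin without control replicate 2 (log2 difference 1.01).

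Of 9 genes of the integrated stress response, to which Atf3 also belongs, 2 rose and 2 fell in IMQ + NS against control skin. For this list and the hypoxia list below, the shares of all genes tested were 11.4% and 11%. Chac1, a glutathione-degrading enzyme, rose by 5.02 and Sesn2 by 1.53, while Nupr1 fell by 1.88 and Ddit3, which encodes CHOP, by 1.31 on the log2 scale (limma, adjusted p of 1.17e-05, 2.49e-04, 7.78e-05 and 8.23e-05). Of 11 hypoxia genes, Slc2a1, a glucose transporter, rose by 1.22, and Bnip3 and P4ha1 fell by 1.22 and 1.12 (limma, adjusted p of 1.87e-04, 0.00641 and 7.38e-06). The counts of both lists in IMQ + NS skin were equal without control replicate 2. In IMQ + BZLF against control skin the stress genes then went from 3 to 2 higher and the hypoxia genes from 1 to 2 lower. With all samples, 9.65% of all genes tested were higher and 10.1% lower in that comparison. Without control replicate 4 or without IMQ + NS replicate 1 or 4, there were 2 hypoxia genes higher in IMQ + NS skin. Between the IMQ groups, Slc2a1 was the only gene called in these lists of signaling and stress genes, lower with BZLF by a log2 difference of -1.54 (limma, adjusted p = 0.00387).

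Cell type markers moved with the comparison of lesions and control skin, in which 11.4% of all genes tested were higher and 11% lower. The summed level of 6 skeletal muscle markers was 3498 to 8647 FPKM in controls and 668 to 1586 FPKM in IMQ + NS samples, with 6 of 6 genes lower, and that of 6 fibroblast markers was 13084 to 18643 against 3681 to 4890 FPKM, with 5 of 6 lower. Adipocyte markers had sums of 717 to 1692 against 286 to 456 FPKM (4 of 5 lower), and Schwann cell markers of 180 to 237 against 63.3 to 78.2 FPKM (3 of 5 lower). Higher in lesions were the follicle markers (8 of 8) and keratinocyte markers, with 2183 to 3397 FPKM in controls and 4981 to 7766 FPKM in IMQ + NS samples (4 of 6). By the adjusted p alone, 4 of the 6 keratinocyte markers were higher and 1 was lower, against 29% and 27.1% of genes tested. Krt15, outside the naming rule, went the other way, with 338 to 437 FPKM in controls and 188 to 253 FPKM in IMQ + NS samples.

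Endothelial markers had sums of 76.2 to 102 FPKM in controls and 62.7 to 77.3 FPKM in IMQ + NS samples with 0 of 5 called, macrophage markers 210 to 301 and 152 to 212 FPKM with 1 of 5 lower, and red cell genes 235 to 704 and 183 to 239 FPKM with 3 of 5 lower. By the adjusted p alone, 3 of the 5 endothelial, 4 of the 5 red cell and 4 of the 5 macrophage markers were lower. The share of all genes tested was 27.1%. The macrophage marker Adgre1 was higher by a log2 difference of 0.70 (limma, adjusted p = 0.00165), under 2-fold. T cell markers had 11.3 to 17.05 and 8.52 to 17.9 FPKM with 0 of 4 tested genes called. Of the marker counts in IMQ + NS skin, that of the red cell genes changed without control replicate 2, to 4 lower. Neutrophil markers, at 6.56 to 9.21 FPKM in controls and 23.4 to 62.5 FPKM in IMQ + NS samples, were higher for 5 of 6 genes. In IMQ + BZLF samples the neutrophil sum was 3.65 to 6.14 FPKM, with 6 of 6 genes lower than in IMQ + NS samples. The keratinocyte sum was 2393 to 3952 FPKM with 1 of 6 lower. Between the IMQ groups 2.2% of all genes tested were lower. No marker gene that was listed was at 0 in all samples of a group. The part of these markers in the levels of the immediate early genes was not tested.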

How the data were processed

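The authors deposited 1 table of FPKM values, normalised for transcript length and sequencing depth, with 1 column for each of the 12 samples. The study's methods name Bowtie2 and eXpress for these values, whereas the submitters' processing notes name fastp, HISAT2, HTSeq, R 3.2.0 and mm10, and kits for extraction and libraries differ likewise between the methods and the labels. Read counts were not used here, and 39.6% of 10612 low values lay within 0.05 of a whole multiple of their step, so reads were not recovered.

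Values were tested as log2(FPKM + 0.1) with limma 3.58.1 in R 4.3.3, with variances moderated along a trend, for 15288 genes with a mean of at least 0.1 FPKM, 4 against 4 samples without covariates. The 2-fold limit is that of the study, which tested counts at an unadjusted p. P-values were adjusted over all genes by the Benjamini-Hochberg method, and a call needed an adjusted p below 0.05 and a log2 difference over 1 in size. A constant of 0.1 understates changes of low genes. Exact permutation tests were two-sided over 70 assignments. The limma fit alone was tested on simulated data. Antisense and overlapping genes were not separated.

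The genes and lists were chosen with earlier results of these data known. Named genes were the 10 genes, in each list at most the 4 largest called changes per direction and comparison, and the 10 genes most like the members' mean deviation. The T cell list held 1 gene, Trac, that was not matched. Alternatives were 3 other scalings, other constants, filters and variance models, a single fit, no fold limit, the replicate number as a block and leaving out each replicate, to which the control spread without each control was added after seeing the data.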

Additional observations from a re-analysis of the deposited data

Results flagged for a closer look

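Among the 30 sets of 4 samples (10 genes in 3 groups), 3 held a sample that stood apart from its group by Dixon's criterion (a gap over range above 0.829), and chance alone flags about 1 in 20 sets. For Fos, IMQ + NS replicate 2 had 14.6 FPKM, above 8.16 to 9.05 FPKM in the other 3 samples (gap over range 0.86). For Fosb, IMQ + BZLF replicate 3 had 1.86 FPKM, above 0.517 to 0.628 FPKM in the others (0.918). For Junb, IMQ + BZLF replicate 1 had 154.6 FPKM, above 119 to 123 FPKM in the others (0.91). The cause was not tested for any of them. No control sample was flagged, but the criterion looks for a single extreme sample. It could not flag the controls where replicates 3 and 4 were high together, as for Fos and Atf3.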

How the results depend on the processing

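The calls of Fos, Fosb, Egr1 and Nr4a1 in both comparisons with control skin were kept in all 20 alternatives for each comparison, with log2 differences of -4.45 to -3.89, -6.03 to -3.82, -1.99 to -1.49 and -2.51 to -1.64 in IMQ + NS skin. The number of genes called lower stayed between 4 and 6 in both. The number called higher in IMQ + NS against control skin, 0, was 1 (Egr3) with no limit on the fold change and 0 to 1 when replicates were left out. The number called higher in IMQ + BZLF against control skin, 1 (Egr3), was 0 with equal FPKM sums, quantile normalization or 1 added before the logarithm, and 0 to 1 when replicates were left out. Ier2 was called lower in IMQ + BZLF against control skin with equal FPKM sums, with no fold limit, or without control replicate 1 or 2.

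Signs changed for differences near 0 that were not called. For Junb in IMQ + NS against control skin (0.04) median ratio scaling gave -0.0040, equal sums -0.0963 and quantile normalization -0.0271, with -0.20 to 0.24 when replicates were left out. For Egr2 (0.03) the values were -0.0071, -0.0987 and -0.1297, with -0.13 to 0.11. In IMQ + BZLF against IMQ + NS samples, Atf3 (-0.04) had 0.012 with median ratio scaling and 0.0006 with quantile normalization, with -0.16 to 0.0196 when replicates were left out. Nr4a1 (-0.01) had 0.047, 0.0217 and 0.0395 with the scalings and 0.0014 with 1 added, with -0.20 to 0.16. Leaving out replicates gave -0.15 to 0.0105 for Egr1 and -0.0467 to 0.12 for Egr3 in that comparison, and -0.37 to 0.0693 for Junb in IMQ + BZLF against control skin. The cause was not tested.

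The replicate numbers are not stated to pair samples, and samples with the same number did not deviate together throughout. Correlations over genes were -0.085, -0.152, 0.184 and 0.111 between IMQ + NS and control replicates 1 to 4. They were 0.094, -0.025, 0.174 and 0.26 between the IMQ groups and -0.067, -0.077, 0.176 and 0.157 between IMQ + BZLF and control replicates. Those of replicates 3 and 4 were thus positive in each comparison. Samples with different numbers had values from -0.236 to 0.268. With the replicate number as a block, 5 genes were lower and 0 higher in IMQ + NS against control skin, 0 were called between the IMQ groups, and 5 were lower and 1 higher in IMQ + BZLF against control skin, and it changed no other call of the 10 genes. The median control SD of the 10 genes, 0.682, was 0.553 to 0.782 when each control was left out, an alternative chosen after seeing the data. Limits are the 4 samples a group, the wide control spread and values without read counts, which leave the sampling error of low genes such as Fosb in lesions unknown.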
